A study of Mus musculus with 18 samples.

Results

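Potassium channel genes were taken as every gene whose symbol is Kcn followed by letters and a number and whose normalized count averaged at least 10 over all 18 libraries. 80 genes met this rule, of 92 genes with such a symbol and of 48440 genes in the deposited table. The 12 genes left out by the mean ranged down from Kcnn4 at 7.13, Kcne3 at 4.47 and Kcnmb3 at 3.27, and the lowest genes kept were Kcnq1 at 13.7, Kcnj15 at 17.6 and Kcnmb1 at 21.6. All 80 are protein coding in GENCODE M21 (GRCm38), lie on 19 chromosomes and were sorted by symbol into 11 roles. Kcnc4, the gene that marks this set, codes for a voltage-gated channel of the Kv3 family.

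The study sequenced RNA from 3 brain tissues of Diversity Outbred mice, which are bred so that no 2 animals share the same combination of founder alleles, to look for genes behind variation in short-term memory. Mice were labelled high performing or low performing, and each tissue had 3 libraries of each kind. The tissues were labelled MDTH, HPF and prefrontal cortex (PFC); the labels do not spell out the first 2 names. No transgene, treatment, sex or age is given in the labels used here, so the groups were MDTH high performers and MDTH low performers, HPF high performers and HPF low performers, and PFC high performers and PFC low performers. The labels do not say whether the 3 libraries of a group came from separate animals, so p-values here describe only how far these libraries varied, which may be technical.

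Potassium channels let potassium leave or enter a cell and so set its resting potential, the height and width of its spikes and the pauses between them. Voltage-gated Kv channels are assembled from several subunits and open on depolarization: Kv1 channels sit mostly in axons, Kv2 channels carry the slow delayed rectifier, Kv3 channels close quickly and allow fast firing, Kv4 channels carry the dendritic A-type current, and Kv7 channels carry the M-current. Inward rectifiers and two-pore channels hold the resting potential, calcium- and sodium-activated channels follow the spike, and auxiliary and electrically silent subunits change how the pore-forming subunits gate. Relay neurons of the thalamus fire either in bursts or in single spikes, and potassium currents take part in setting which.

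Estimated depth was 42874301 to 47535071 reads in MDTH, 76668860 to 88706089 in HPF and 41098043 to 48848640 in PFC. Kcnj15 and Kcnq1 averaged under 10 in MDTH and were not tested there; all other members were tested in every tissue. For 27 members, another annotated gene shares some exon bases. Summed markers of thalamic relay neurons (10 genes) were 152216 to 351776 normalized counts in MDTH libraries, 15483 to 34916 in HPF libraries and 15224 to 20947 in PFC libraries. Summed markers of hippocampal excitatory neurons (10 genes) were 45242 to 91728 in HPF libraries, against 18448 to 29913 in the other 2 tissues. Markers of the choroid plexus and ependyma summed to 164887 in HPF high-performer library 2, 149683 in PFC high-performer library 1, and 126438 and 77312 in PFC low-performer libraries 2 and 3, against 2013 to 12573 in the other 14 libraries. In library names, the style separated high from low performers completely in MDTH and in PFC, so performance and whatever the style stands for cannot be told apart there. In HPF names, the letters after the number (FF or EF in high performers, BA or BD in low performers) also separated the groups completely. What those letters stand for is not given, and it cannot be told apart from performance either.

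In MDTH, potassium channel genes differed between high and low performers in both directions. Of the 78 members tested, 13 were higher and 12 were lower in high performers at an adjusted p below 0.05 (limma test, Benjamini-Hochberg adjustment over all genes), and 53 did not pass. That is 32.1% of the members, beside 25.0% of all 17861 genes tested (12.5% higher and 12.5% lower), and the median log2 difference was 0.10 over the members and -0.003 over all genes. The libraries of the 2 groups did not overlap for 32 members, or 41.0%, beside 44.2% of all genes (22.2% higher and 22.0% lower). The members together took 0.708% ± 0.045 of normalized counts in high performers and 0.555% ± 0.047 in low performers (SD, n = 3 each).

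The count in MDTH depended on single libraries, and the count over all genes moved with it. Without high-performer library 1, 2 or 3 it was 31, 13 or 14 members, and without low-performer library 1, 2 or 3 it was 27, 12 or 10. Over all genes, the count of 4470 became 4223, 2469 or 2800 without high-performer library 1, 2 or 3, and 3786, 2377 or 1839 without low-performer library 1, 2 or 3. 9 members passed in all 6 of these fits: Kcnc4, Kcng1, Kcnh1 and Kcnk9, which were lower in high performers, and Kcns2, Kcnj12, Kcnq3, Kcnab1 and Kcnc2, which were higher.

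Cell type markers in the MDTH libraries also moved with performance. Thalamic relay markers summed to 304434 to 351776 in high performers and 152216 to 215949 in low performers, with 6 of 10 markers higher and 1 lower. Markers of habenular neurons summed to 1342 to 2403 in high performers and 5021 to 29294 in low performers, with 6 of 12 lower, and markers of inhibitory neurons summed to 3688 to 4708 in high performers and 11855 to 29125 in low performers, with 5 of 11 tested lower. None of these markers was at 0 in any MDTH library. Hippocampal excitatory markers summed to 24833 to 29913 in high performers and 18971 to 20649 in low performers. Cortical excitatory markers summed to 26850 to 33007 and 20095 to 25030. Single markers of these lists went both ways, with 1 higher and 3 lower of 9 hippocampal and 1 higher and 1 lower of 9 cortical markers tested. Of 10 astrocyte markers, 3 were lower and none higher. Fewer cells of a type and less RNA per cell cannot be told apart in such bulk samples, and the part of these cell types in the differences that follow was not tested.

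The Kv3 genes moved in opposite directions in MDTH. Kcnc4, a Kv3 subunit that inactivates rapidly (ENSMUSG00000027895, chromosome 3, 107438303 to 107459552, minus strand), had 1098, 769.5 and 940.2 normalized counts in high performers, against 3680.3, 4376 and 3603 in low performers. Every high-performer library lay below every low-performer library, and the log2 difference was -2.06 (SE 0.15, adjusted p = 0.00262), a level 4.18-fold lower. Kcnc2, whose channels inactivate little and serve sustained fast firing (chromosome 10, 112271121 to 112467024, plus strand), had 26583, 36362 and 34673 normalized counts in high performers, against 17381, 8917 and 8864 in low performers. Its groups did not overlap either, and it was 2.9-fold higher (log2 difference 1.54, SE 0.27, adjusted p = 0.00976). Kcnc1, the other subunit known from fast-firing neurons (chromosome 7, 46396497 to 46438704, plus strand), had 18036, 19731 and 20320.4 normalized counts in high performers, against 16299, 10121 and 9339 in low performers, a log2 difference of 0.74 (adjusted p = 0.0355). One low-performer library lay close to the high performers for Kcnc1, and when 1 library was left out the gene kept its call only without low-performer library 1 (adjusted p = 0.00416 there, up to 0.109 in the other 5 fits). Without each library in turn, the log2 difference of Kcnc4 stayed between -2.19 and -1.93 and that of Kcnc2 between 1.37 and 1.86.

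The start regions of the Kv3 genes that differed are given because these genes of one family went different ways. RefSeq lists promoter windows, from 250 bases before to 50 bases after a start, for 57 members on GRCm38.p6. The 3 sequences run 5′ to 3′ on the gene's own strand, and capitals mark the GC box GGGCGG, on either strand.
Kcnc4 (chr3:107458849-107459148, minus strand): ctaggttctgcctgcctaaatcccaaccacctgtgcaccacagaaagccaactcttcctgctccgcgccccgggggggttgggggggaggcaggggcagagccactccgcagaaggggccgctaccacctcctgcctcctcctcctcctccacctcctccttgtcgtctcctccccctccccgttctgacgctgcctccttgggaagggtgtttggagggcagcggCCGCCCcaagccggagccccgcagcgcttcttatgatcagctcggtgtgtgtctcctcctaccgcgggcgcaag
Kcnc2, first of its 4 starts (chr10:112269767-112270066, plus strand): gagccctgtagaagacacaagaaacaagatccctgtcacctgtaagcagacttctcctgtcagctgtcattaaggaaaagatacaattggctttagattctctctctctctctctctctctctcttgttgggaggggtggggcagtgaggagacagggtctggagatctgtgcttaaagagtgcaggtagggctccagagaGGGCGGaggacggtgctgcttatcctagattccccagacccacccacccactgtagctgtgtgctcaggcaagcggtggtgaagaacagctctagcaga
Kcnc1 (chr7:46396218-46396517, plus strand): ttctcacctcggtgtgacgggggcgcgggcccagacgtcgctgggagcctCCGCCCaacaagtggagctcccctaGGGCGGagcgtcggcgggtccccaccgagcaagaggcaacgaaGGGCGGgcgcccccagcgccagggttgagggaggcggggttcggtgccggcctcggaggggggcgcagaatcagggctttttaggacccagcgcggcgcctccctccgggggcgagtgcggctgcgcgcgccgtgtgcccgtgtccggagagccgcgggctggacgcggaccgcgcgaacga
The window of Kcnc4 held 1 GC box and 66.7% G and C, that of Kcnc2 held 1 and 52.7%, and that of Kcnc1 held 3 and 74.7%. Over all 81 windows of members, 49.4% held a GC box, beside 35.7% of 32851 windows of all genes. The 8-base cAMP response element TGACGTCA was in 0 of the 81 windows and in 1.79% of all windows, and the shorter TGACG, which lies inside it, in 19.8% and 20.8%. The letters TATAAA were in 6.17% of members' windows and 13.6% of all windows, and the E box CACGTG in 7.41% and 7.15%. Both strands were searched, and a match is only a stretch of letters. The Kcnc2 window lay wholly before the GENCODE start of the gene, and the Kcnc4 window lay wholly inside the gene. Whether these windows belong to the transcripts measured was not tested.

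**Figure D1:**
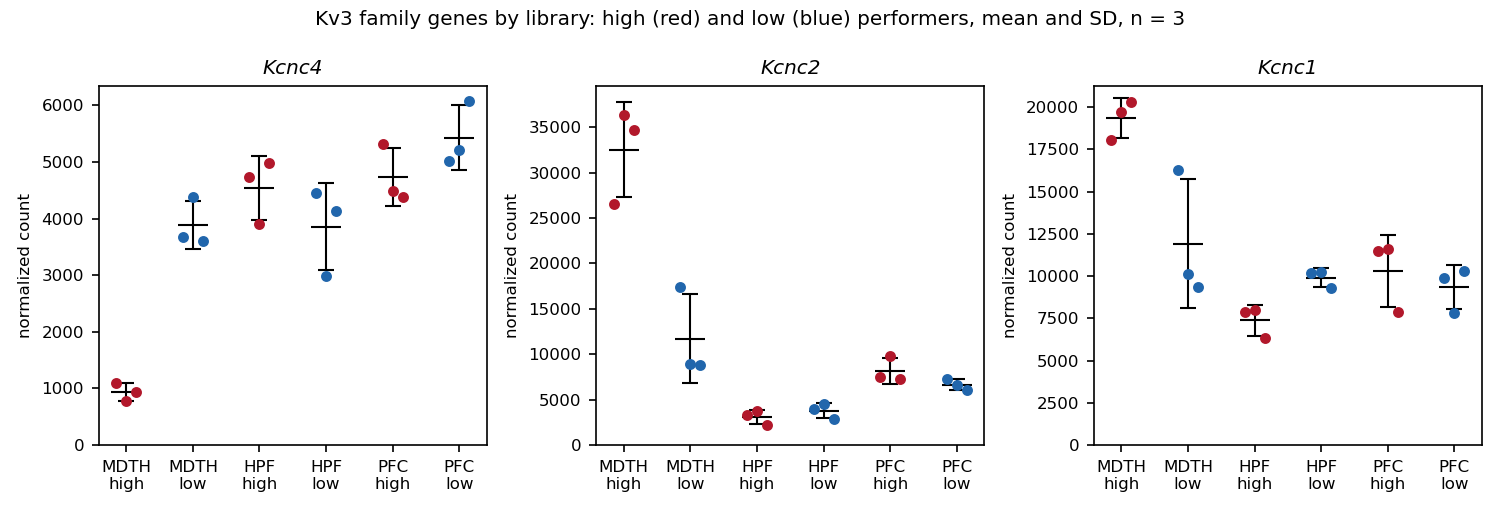
Normalized counts of Kcnc4, Kcnc2 and Kcnc1 in each library (y axis), by tissue and performance (x axis); points are libraries, red for high and blue for low performers, and lines are the mean and SD of 3 libraries. In MDTH, Kcnc4 sits at 769.5 to 1098 in high performers and 3603 to 4376 in low performers, while Kcnc2 sits at 26583 to 36362 in high performers and 8864 to 17381 in low performers.

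Kcnc4 also has potassium channel genes as neighbours. Kcna2 ends 323 kb before it on chromosome 3 and Kcna3 ends 400.2 kb before it. Kcna2 was higher in MDTH high performers, and Kcna3 had a log2 difference of -0.63 that did not pass (adjusted p = 0.0565), although its groups did not overlap.

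Of the 6 Kv1 genes, which code for the subunits of axonal low-threshold channels, 3 were higher in MDTH high performers and none was lower. Kcna2, the Kv1 subunit found along most myelinated axons, had 35367, 44316 and 34937 normalized counts in high performers, against 29046, 23182 and 24239 in low performers, a log2 difference of 0.58 (SE 0.13, adjusted p = 0.0194). Kcna4, a Kv1 subunit that inactivates by itself, had 2980.0, 3504 and 2997 in high performers, against 2471, 1921 and 1645 in low performers, a log2 difference of 0.67 (adjusted p = 0.0227). For Kcna4 the groups stood apart by less than the spread within either group, and for Kcna2 by less than the spread of the high performers alone. Kcna6 had a log2 difference of 0.53 (adjusted p = 0.02); an antisense gene shares 39.6% of its exon bases, and whether strand was used in counting is not given in the sources used here. Leaving out high-performer library 2 or low-performer library 2 or 3 ended the call for all of Kcna2, Kcna4 and Kcna6 (adjusted p up to 0.0748), and leaving out high-performer library 3 ended it for Kcna4 and Kcna6.

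Kv4 and Kv7 genes were split. Kcnd2, the main pore-forming subunit of the dendritic A-type current, had 13337, 14956 and 12937 normalized counts in high performers, against 10833, 7836 and 8849.8 in low performers, a log2 difference of 0.59 (adjusted p = 0.0177), while Kcnd3 at 0.07 and Kcnd1 at -0.19 did not pass. Kcnq3, a subunit of the neuronal M-channel, had 17661, 20712 and 21325 normalized counts in high performers, against 10951, 6992 and 5988 in low performers. It was 2.57-fold higher (log2 difference 1.36, SE 0.21, adjusted p = 0.00715). Kcnq5, another M-channel subunit, had 969.6, 374 and 244 normalized counts in high performers, against 1882, 2411 and 2278 in low performers, and was 4.88-fold lower (log2 difference -2.29, SE 0.45, adjusted p = 0.014). High-performer library 1 was the highest of its group for Kcnq5, and the groups still did not overlap. Without low-performer library 3 the adjusted p was 0.0549 for Kcnq5, and Kcnd2 did not pass without high-performer library 2 or low-performer library 2 or 3 (adjusted p up to 0.0666).

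Electrically silent subunits, which form no channel alone and join Kv2 subunits, went both ways, and Kcng1 had the lowest log2 difference of all members tested in MDTH. Kcng1 (chromosome 2, 168260117 to 168281736, minus strand) had 52.4, 20.9 and 49.1 normalized counts in high performers, against 413, 772 and 1063 in low performers. That is 18-fold lower, a log2 difference of -4.17 (SE 0.46, adjusted p = 0.00342). Kcns2 (chromosome 15, 34837355 to 34843407, plus strand) had 3171, 4599.6 and 3223 normalized counts in high performers, against 1537, 1546 and 1307 in low performers. It was 2.47-fold higher (log2 difference 1.31, SE 0.16, adjusted p = 0.00411), and its low-performer libraries lay close together. Kcns1 was low throughout, at 13.2 to 19.6 normalized counts in high performers and 30.3 to 62.1 in low performers (log2 difference -1.36), and lost its call whichever library was left out (adjusted p 0.0653 to 0.148). The other 6 of these 9 genes did not pass, and Kcng2, which had a log2 difference of -2.43, came closest (adjusted p = 0.0577).

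In the ether-a-go-go family, 2 of 8 genes were lower in MDTH high performers and none was higher. Kcnh1, a slowly activating channel of brain neurons, had 178, 63.3 and 86.5 normalized counts in high performers, against 559, 602 and 504 in low performers. It was 5.53-fold lower (log2 difference -2.47, SE 0.36, adjusted p = 0.0061) and kept its call in all 6 fits that left out 1 library. Kcnh8 had 36.6 to 81.4 normalized counts in high performers and 101, 492 and 772 in low performers, so that 1 low-performer library stood near the high performers. Its log2 difference of -2.78 kept its call, with 1 library left out, only without high-performer library 1 (-3.15) or low-performer library 1 (-3.65), and was -2.19 without low-performer library 3 (adjusted p up to 0.106 in the other 4 fits).

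Among calcium- and sodium-activated channels, only the sodium-activated channel Kcnt1 passed of 7 tested. It had 4154, 2437 and 3153 normalized counts in high performers, against 6004, 5767 and 6499 in low performers, a log2 difference of -0.94 (SE 0.18, adjusted p = 0.0129; 0.054 without low-performer library 3). The large-conductance channel Kcnma1 had a log2 difference of 0.08 and the small-conductance channels Kcnn1, Kcnn2 and Kcnn3 had -0.04, -0.14 and 0.30, none of which passed.

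Inward rectifiers went both ways, with 4 of 13 tested higher and 2 lower. The G-protein-gated subunits Kcnj3, Kcnj6 and Kcnj9 were higher, with log2 differences of 0.85, 0.57 and 0.84, while the fourth subunit of that kind, Kcnj5, was lower. Kcnj3 had 7467, 11292 and 10933 normalized counts in high performers, against 6668, 4783 and 4924 in low performers (adjusted p = 0.0207), and a non-coding gene on the other strand shares 31.1% of its exon bases. Kcnj5 had 784, 185 and 115 normalized counts in high performers, against 1377, 1701 and 1399 in low performers. Its log2 difference was -2.53 (SE 0.63, adjusted p = 0.0278), and high-performer library 1 stood well above the other 2 of its group. The strong rectifiers also differed from each other: Kcnj12 had 2835, 3071 and 3375 normalized counts in high performers, against 2068, 1738 and 1878 in low performers (log2 difference 0.71, SE 0.10, adjusted p = 0.00594), and Kcnj2 had 224, 263 and 356 in high performers, against 497, 749 and 503 in low performers (log2 difference -1.05, adjusted p = 0.021). Kcnj10, the potassium-buffering channel of astrocytes that lies 11.9 kb from Kcnj9 on chromosome 1, had a log2 difference of 0.10 (adjusted p = 0.509). With 1 library left out, Kcnj12 kept its call in all 6 fits; Kcnj5 kept it only without high-performer library 1, where its log2 difference was -3.34 (it was -1.96 without high-performer library 3), Kcnj6 only without high-performer library 1, Kcnj9 only without low-performer library 1, Kcnj3 only without high-performer library 1 or low-performer library 1, and Kcnj2 not without high-performer library 2 or low-performer library 2 or 3 (adjusted p over these genes up to 0.119).

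Of the 10 two-pore leak channel genes, 3 were lower in MDTH high performers and none was higher. Kcnk9, an acid-sensitive leak channel, had 239, 225 and 246 normalized counts in high performers, against 482, 503 and 397 in low performers (log2 difference -0.95, SE 0.15, adjusted p = 0.00788). Kcnk2, a channel opened by stretch and lipids, had 683, 371 and 412 in high performers, against 836, 1357 and 901 in low performers (log2 difference -1.10, SE 0.28, adjusted p = 0.0291), and an antisense gene shares 12.2% of its exon bases. Kcnk10, of the same kind as Kcnk2, had a log2 difference of -0.82 (adjusted p = 0.0279). Kcnk3, the acid-sensitive channel most like Kcnk9, had a log2 difference of 0.35 that did not pass (adjusted p = 0.124). With 1 library left out, Kcnk9 kept its call in all 6 fits, whereas Kcnk10 kept it only without high-performer library 1 and Kcnk2 only without high-performer library 1 or low-performer library 1 (adjusted p up to 0.0883 without the others).

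Of 12 auxiliary subunit genes, Kcnab1 alone passed in MDTH. Kcnab1, a cytoplasmic beta subunit that gives Kv1 channels fast inactivation, had 13254, 14039 and 14206 normalized counts in high performers, against 7909, 4706 and 3864 in low performers. Its groups stood wide apart and it was 2.64-fold higher (log2 difference 1.40, SE 0.24, adjusted p = 0.009). Kcnab2, the beta subunit with the highest level per kilobase, had a log2 difference of 0.27 (adjusted p = 0.216), and the Kv4-binding Kcnip1 and Kcnip2 had -1.10 and -0.64 without passing.

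Genes outside the Kcn symbols that code for partners of these channels moved both ways. Of 17 such genes, 16 could be tested in MDTH, and 2 were higher and 3 lower in high performers. Dpp10, which joins Kv4 channels, was higher (log2 difference 0.75, adjusted p = 0.0131) and Dpp6, its close relative, was lower (-0.54, adjusted p = 0.0139). Lrrc55, an auxiliary subunit of the large-conductance calcium-activated channel, was lower (-3.31, adjusted p = 0.017), and Abcc8, the sulfonylurea receptor of ATP-sensitive channels, was higher (1.01, adjusted p = 0.0279). Dpp10 and Dpp6 did not pass without low-performer library 3 (adjusted p = 0.0543 and 0.0568), Lrrc55 not without high-performer library 2 or 3 or low-performer library 2 (its log2 difference was -4.10 without low-performer library 1 and -2.53 without low-performer library 3), and Abcc8 not without high- or low-performer library 2 or 3 (adjusted p up to 0.0924). No partner passed in HPF or PFC, where the smallest adjusted p-values were 0.147 for Lrrc55 in HPF and 0.0796 for Lgi1 in PFC.

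**Figure D2:**
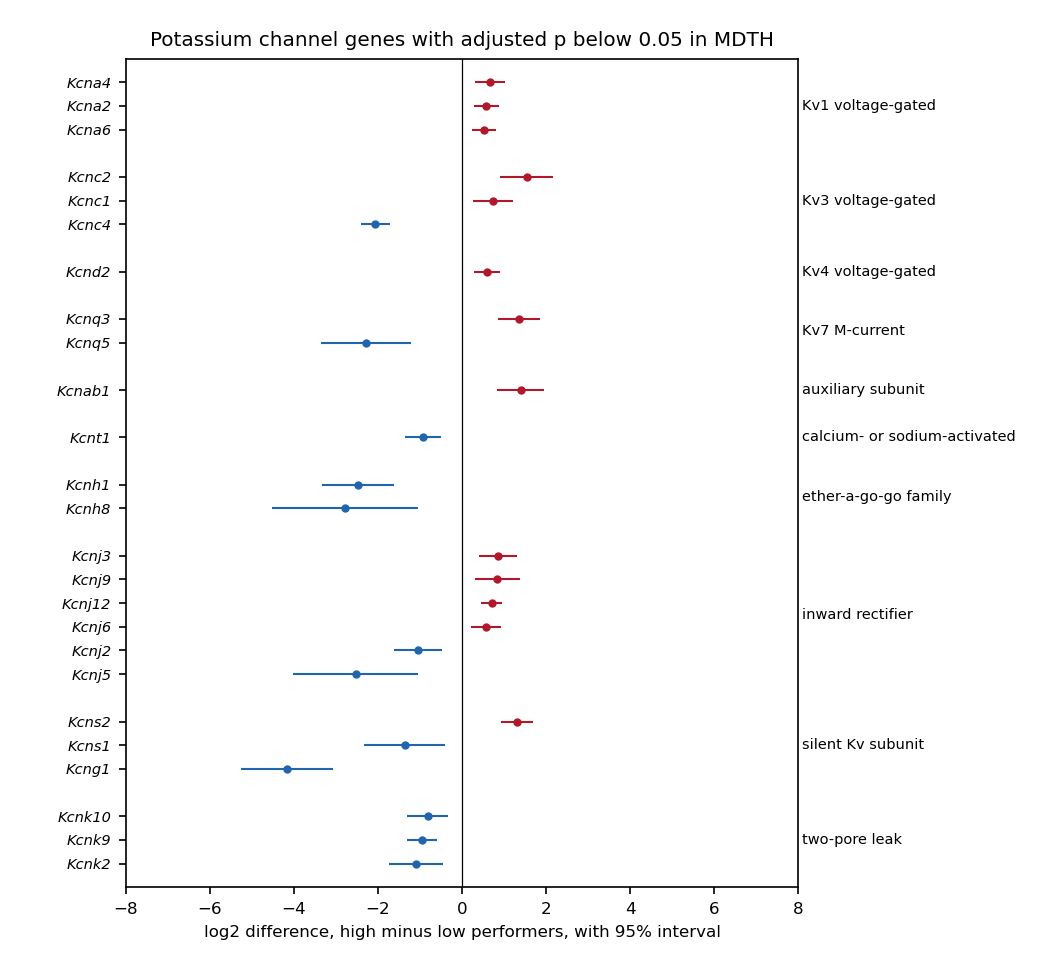
Log2 difference between MDTH high and low performers (x axis) of the 25 members with an adjusted p below 0.05, by role (y axis), with its 95% interval from 6 libraries; red is higher and blue lower in high performers. The values run from -4.17 for Kcng1 to 1.54 for Kcnc2; the two-pore and ether-a-go-go genes lie left of 0 and the Kv1 genes right of it.

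In HPF, no member passed by limma among the 80 tested (0.0166% of all 18082 genes did, 0.0111% higher and 0.00553% lower). With all 18 libraries in one fit, which shares the spread over tissues, 4 of 80 members passed, beside 265 of 18254 genes. The groups did not overlap for 23 members, or 28.8%, beside 20.0% of all genes (8.47% higher and 11.6% lower). Kcnh7, an ether-a-go-go channel, had 2003, 3957 and 3210.4 normalized counts in high performers, against 954, 1333 and 772 in low performers, a log2 difference of 1.56 (95% interval 0.89 to 2.24, adjusted p = 0.143). Kcnh1 had 3789.9, 3945 and 3952 in high performers, against 5809, 5576 and 5575 in low performers, a log2 difference of -0.54 (95% interval -0.70 to -0.38, adjusted p = 0.0737). Both groups of Kcnh1 were tight and lay apart, yet over all genes the value did not pass. Kcnv1, a silent subunit, had a log2 difference of -0.75, Kcnn3 one of 0.53 and Kcnq3 one of 0.48 (adjusted p 0.165 to 0.189). Kcnk4, a stretch-sensitive leak channel, had 222, 158 and 69.6 normalized counts in high performers, against 475, 525 and 376 in low performers (log2 difference -1.75, adjusted p = 0.191), and the gene Catsperz on the same strand shares 13.1% of its exon bases. Kcnc4 had 4739, 3901 and 4979 in high performers, against 4450.5, 2992 and 4130.1 in low performers, a log2 difference of 0.25 (95% interval -0.14 to 0.64, adjusted p = 0.564) in overlapping groups.

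The HPF libraries carry 3 lane tags in their names, of which 1 held a library of each group. Within that pair, the log2 difference was 2.06 for Kcnh7, -0.50 for Kcnh1, -0.93 for Kcnv1, 0.75 for Kcnn3, 0.64 for Kcnq3, -2.42 for Kcnk4 and 0.27 for Kcnc4, in the same directions as over all 6 libraries. Apart from Kcnc4, the groups of these genes did not overlap, so any pair of a high and a low performer gives that direction. The pair is therefore no separate test of the lane. Hippocampal markers summed to 67802 to 91728 normalized counts in HPF high performers and 45242 to 48967 in HPF low performers, and cortical excitatory markers to 86749 to 102388 in HPF high performers and 113954 to 132082 in HPF low performers. No marker of either list passed among 10 tested in each. The median log2 difference was 0.445 over the hippocampal and 0.000273 over the cortical markers. The part of these cell types in the values of the members was not tested.

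In PFC, 4 members were higher and 2 lower in high performers, 6 of 80 or 7.5%, beside 5.85% of all 17991 genes (3.22% higher and 2.63% lower). Kcns2 had 1756, 1909 and 2264 normalized counts in high performers, against 1156, 1063 and 1115 in low performers, a log2 difference of 0.82 (SE 0.12, adjusted p = 0.0185). Kcnv1, another silent subunit, had 5078, 4683 and 4745 in high performers, against 3639, 2799 and 3226 in low performers (log2 difference 0.59, adjusted p = 0.0307). The strong inward rectifier Kcnj4 and the beta subunit Kcnab1 were also higher, by log2 differences of 0.58 and 0.40 (adjusted p = 0.0402 and 0.0477). Kcnab2, a beta subunit that carries Kv1 channels to the axon, had 18504, 19675 and 16865 normalized counts in high performers, against 33423, 25999 and 32904 in low performers. It was lower by 1.67-fold (log2 difference -0.74, SE 0.12, adjusted p = 0.0222). Kcnmb4, a beta subunit of the large-conductance channel, had a log2 difference of -0.44 that did not pass (adjusted p = 0.0966). Kcnc4 had 5325, 4498 and 4381 in high performers, against 5017, 5205 and 6079 in low performers, a log2 difference of -0.20 (95% interval -0.46 to 0.07, adjusted p = 0.323). Kcns2 and Kcnab1 passed and were higher in both MDTH and PFC, that is 2 of the 25 members called in MDTH and 2 of the 6 called in PFC. The overlap over all genes was not counted, and 32.1% of members passed in MDTH, so no shared pattern is read from these 2.

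The PFC calls also depended on single libraries. Without high-performer library 1, 2 or 3 the count was 1, 0 or 0, and without low-performer library 1, 2 or 3 it was 3, 5 or 0. Over all genes, the count of 1053 became 205, 17 or 7 without high-performer library 1, 2 or 3, and 278, 1306 or 9 without low-performer library 1, 2 or 3. The adjusted p of the 6 members reached 0.0916 for Kcns2 and 0.153 for Kcnab1. Kcns2 kept its call without high-performer library 1 or low-performer library 1 or 2. 3 of the 6 PFC libraries held the high choroid plexus markers, and in a fit without those 3, chosen after seeing the data, no member and 7 of 17771 genes passed, with 2 high performers against 1 low performer; the log2 difference of Kcns2 was then 0.85 and that of Kcnab2 -0.88. The lone low performer was assumed there to vary like the other libraries. Microglial markers summed to 15903 to 19526 in PFC high performers and 19901 to 23962 in PFC low performers, with 4 of 10 lower, and their part in these values was not tested.

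Whether the difference between high and low performers itself differed between tissues was tested in one fit over all 18 libraries and 18254 genes. That fit treated libraries with the same number in their names as independent. High performers carried the same numbers in every tissue, whereas most low-performer numbers did not recur. Tissue and number therefore cannot be fully told apart here, nor in the tissue differences over low performers alone given below. Between MDTH and PFC it did for 10 members, 12.5% beside 3.41% of all genes (0.871% higher and 2.54% lower), with 4 higher and 6 lower in MDTH. For Kcnc4 the log2 difference was -2.06 in MDTH and -0.20 in PFC, and the difference of these was -1.86 (SE 0.22, adjusted p = 0.000403). Kcng1, Kcnh1 and Kcnk2 had differences of -4.26, -2.78 and -1.75 on this log2 scale, and Kcnq3 had one of 1.21 (adjusted p = 0.000403, 0.000504, 0.0121 and 0.0148). Without the 4 libraries high in choroid plexus markers only 2 members passed, Kcnc4 and Kcng1, beside 58 of 18187 genes. In that fit, with 4 fewer libraries, Kcnh1, Kcnk2 and Kcnq3 had differences of -2.58, -1.91 and 1.50 (adjusted p = 0.0607, 0.133 and 0.0968). Without low-performer MDTH library 2, Kcnq3 did not pass (1.14, adjusted p = 0.0521).

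Between MDTH and HPF the performance difference differed for 20 members, 25.0% beside 19.0% of all genes (10.5% higher and 8.52% lower), with 11 higher and 9 lower in MDTH. Kcnc4 had a difference of -2.31 (SE 0.22, adjusted p = 3.77e-05), Kcng1 one of -3.86, Kcnh1 one of -1.93 and Kcnk9 one of -1.51. Kcns2 had a difference of 1.49 (adjusted p = 0.000242), with log2 differences of 1.31 in MDTH and -0.18 in HPF. Each of these 5 kept its call without any single MDTH or HPF library.

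Between HPF and PFC 5 members differed, 4 higher and 1 lower in HPF, 6.25% beside 9.14% of all genes (3.37% higher and 5.77% lower), and 9 did when libraries with the same number in their names were treated as a block, beside 2432 of 18254 genes. Kcns2 had a difference of -1.01 and Kcnn3 one of 0.74 (adjusted p = 0.00714 and 0.0101), and both kept their calls without each single library. Kcnj10, Kcnh7 and the Kv4 gene Kcnd1 had differences of 0.62, 1.17 and 0.76; they passed in 9, 3 and 6 of 12 fits that each left out 1 library, with adjusted p up to 0.0572, 0.0923 and 0.111. None of the 5 passed without the 4 libraries high in choroid plexus markers, where 400 of 18187 genes did. In that smaller fit the differences kept their directions, at -1.10 for Kcns2, 0.83 for Kcnn3, 0.52 for Kcnj10, 1.17 for Kcnh7 and 0.82 for Kcnd1 (adjusted p 0.0628 to 0.198). Kcnc4 had a difference of 0.45 that did not pass (adjusted p = 0.241).

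**Figure D3:**
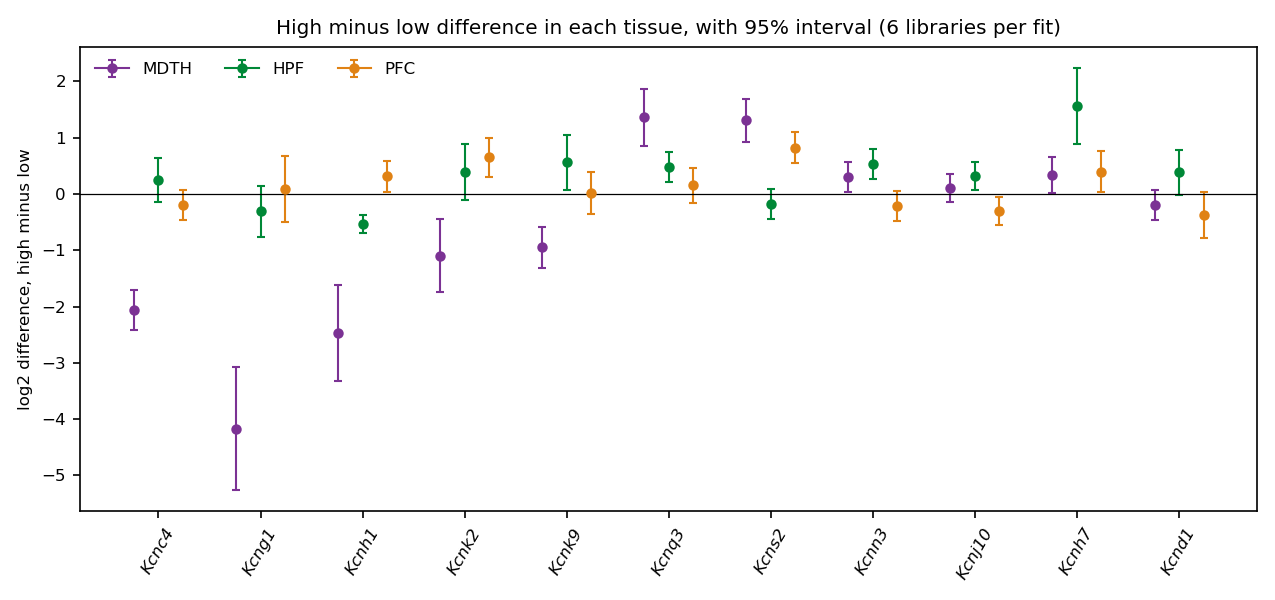
Log2 difference between high and low performers (y axis) of 11 members (x axis) in MDTH, HPF and PFC, each with its 95% interval from the 6 libraries of the tissue. Kcnc4, at -2.06 in MDTH, lies at 0.25 in HPF and -0.20 in PFC, with intervals that cross 0 in those 2 tissues.

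Most members differed between tissues. Of 80 members, 20 were higher and 30 lower in MDTH than in PFC (62.5%, beside 40.7% of all genes, 20.3% higher and 20.4% lower), 33 higher and 27 lower in MDTH than in HPF (75.0%, beside 58.1%, 29.1% higher and 29.0% lower), and 15 higher and 32 lower in HPF than in PFC (58.8%, beside 45.5%, 21.8% higher and 23.7% lower). These 3 comparisons share libraries. HPF libraries also had lane tags and a name style that no MDTH or PFC library had, and a higher estimated depth. Tissue cannot be told apart from these in the differences from HPF, or where performance differences were compared with HPF. The mean was highest in MDTH for 31 members, in HPF for 20 and in PFC for 29.

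The inward rectifiers Kcnj5 and Kcnj12 were higher in MDTH than in both other tissues. Kcnj5 had a median of 1080.3 normalized counts in MDTH (115 to 1701), 25.1 in HPF (4.03 to 148) and 39.6 in PFC (9.96 to 92.8), a log2 difference of 4.54 against HPF and 4.14 against PFC. Kcnj12 had a median of 2452 in MDTH (1738 to 3375), 106 in HPF (74.9 to 268) and 675 in PFC (461 to 847), with log2 differences of 4.33 and 1.92. The MDTH libraries did not overlap the other tissues for Kcnj12, nor for Kcnn3, a small-conductance calcium-activated channel that had medians of 5010.2 in MDTH and 1009 in PFC (log2 difference 2.27). Kcnh8 was higher in MDTH by log2 differences of 3.14 against HPF and 3.03 against PFC, and Kcnj16, the partner of Kcnj10 in glia, by 1.67 against PFC. Over high performers alone and over low performers alone, the difference of Kcnj5 was 2.59 and 6.50 against HPF and 3.43 and 4.85 against PFC, and that of Kcnh8 was 2.07 and 4.21 against HPF and 1.80 and 4.26 against PFC.

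Going the other way, Kcnj4 had a median of 50.9 normalized counts in MDTH (29.1 to 105), 4696 in HPF (4057 to 6073) and 5053 in PFC (3387 to 6219). That is 94.8-fold lower in MDTH than in HPF and 94.1-fold lower than in PFC. Kcnv1 was lower in MDTH by log2 differences of -4.99 against HPF and -5.76 against PFC, Kcnh3 by -4.15 and -4.83, Kcnh1 by -4.32 and -4.83, and Kcng1 by -4.48 against HPF. Of the 9 silent subunit genes, 6 were lower and none was higher in MDTH than in HPF, and 6 were lower and 1 was higher in MDTH than in PFC. Among the lower ones, Kcng2 passed against HPF alone and Kcnf1 against PFC alone. Kcns1 was lower by -3.89 against PFC. Some of these values changed when the 2 kinds of performer were taken apart. Over high performers alone and over low performers alone, the difference of Kcng1 against HPF was -6.41 and -2.55, that of Kcnh1 was -5.28 and -3.35 against HPF and -6.22 and -3.44 against PFC, and that of Kcnv1 against PFC was -6.68 and -4.84.

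The Kv3 genes also differed by tissue. Kcnc2 had a median of 21982 normalized counts in MDTH (8864 to 36362) and 3499.9 in HPF (2227 to 4498), a log2 difference of 2.50 (3.42 over high performers alone and 1.58 over low performers alone). Kcnc4 had a median of 2351 in MDTH (769.5 to 4376), 4290.3 in HPF (2992 to 4979) and 5111 in PFC (4381 to 6079), with log2 differences of -1.13 against HPF and -1.42 against PFC (adjusted p = 3.86e-07 and 5.19e-08). Taken over high performers alone, Kcnc4 was lower in MDTH than in HPF by a log2 difference of -2.28, and over low performers alone the difference was 0.026 (adjusted p = 0.911). Against PFC the difference was -2.35 over high performers alone and -0.48 over low performers alone, and it passed in both. Between HPF and PFC it was -0.29 (adjusted p = 0.0483), a call kept in 4 of 12 fits that each left out 1 library.

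Between HPF and PFC, the silent subunit Kcng2 had a median of 1754 normalized counts in HPF (1543 to 2019.7) and 191 in PFC (99.1 to 248), a log2 difference of 3.32. The Kv4-binding Kcnip2, the Kv1 gene Kcna4 and the G-protein-gated Kcnj6 were higher in HPF by 1.34, 1.30 and 1.25, and Kcng1 by 1.14 (0.94 over high performers alone and 0.93 without the 4 choroid-rich libraries, where it did not pass). Kcnt1 had a median of 994 in HPF (719.8 to 1882) and 6612 in PFC (5139 to 8322), a log2 difference of -2.70. Kcnj12, Kcnk3, Kcnh7 and the beta subunit Kcnab3 were lower in HPF by log2 differences of -2.41, -2.33, -2.24 and -1.98. All of the members named for tissue differences had adjusted p-values below the threshold, and apart from Kcnc4 and Kcng1 each kept its call in all of the alternatives run.

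**Figure D4:**
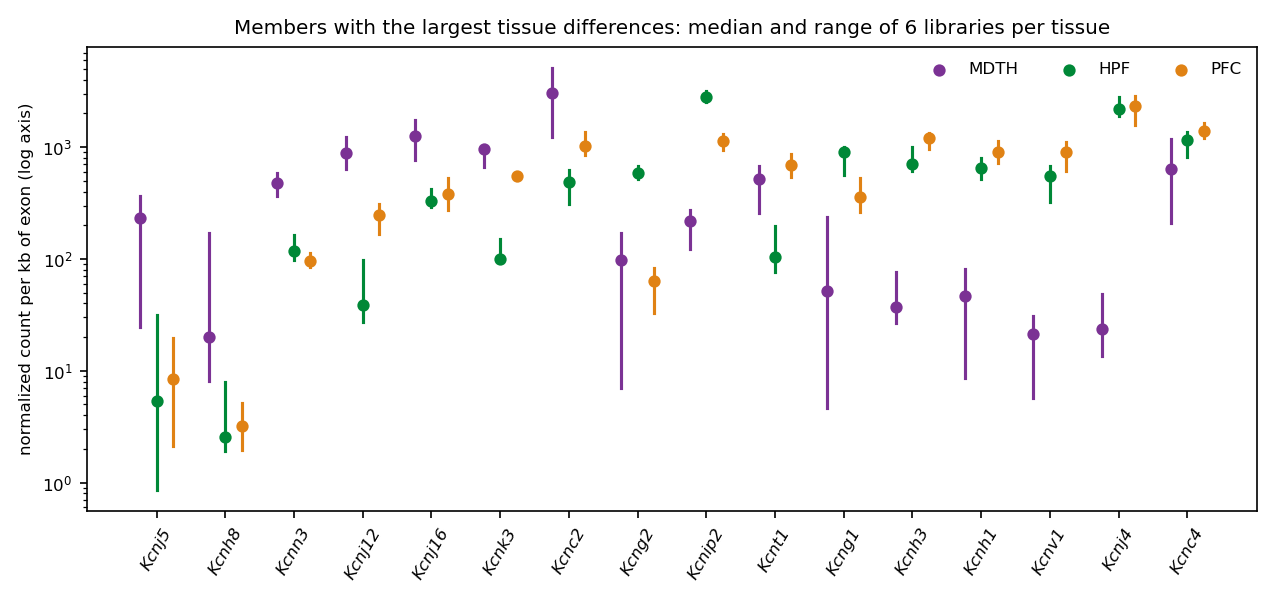
Normalized count per kilobase of exon (y axis, log scale) of 16 members (x axis) in MDTH, HPF and PFC; points are medians and bars the range of 6 libraries. Kcnj4 has medians of 23.7 per kilobase in MDTH and 2348 in PFC, and Kcnj5 has medians of 230.6 in MDTH, 5.35 in HPF and 8.46 in PFC.

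Levels per kilobase of exon can be compared between genes. In MDTH the highest was Kcnj10, with 8504 ± 775 normalized counts per kilobase (SD, n = 6), followed by Kcnab2 at 3681 ± 593, Kcnj9 at 3322 ± 1185, Kcnc2 at 3100.3 ± 1719 and Kcna2 at 2675 ± 670.1. The last 4 overlap within their SDs, whereas Kcnj10 stands clear of them. In HPF the order was Kcnab2 at 5546 ± 992, Kcnip2 at 2808 ± 232, Kcnk1 at 2688 ± 402 and Kcnj10 at 2460.0 ± 346, and only the first was separated from its neighbour by more than the SDs. In PFC it was Kcnab2 at 4403 ± 1317, Kcnj10 at 3148 ± 469.7, Kcnip3 at 2609 ± 754, Kcnj9 at 2372 ± 472 and Kcnj4 at 2281 ± 524, a run of neighbours that did not differ beyond their SDs. Kcnc4 had 658 ± 448 per kilobase in MDTH, 1145 ± 193 in HPF and 1386 ± 168 in PFC, rank 27, 11 and 14 of the 80 members.

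As a share of the summed level per kilobase, inward rectifiers took 28.8% ± 1.64 in MDTH high performers and 29.6% ± 2.73 in MDTH low performers, 21.9% ± 1.39 in HPF high performers and 19.9% ± 1.63 in HPF low performers, and 20.8% ± 0.547 in PFC high performers and 20.6% ± 0.351 in PFC low performers (SD, n = 3 each). Kv3 genes took 12.7% ± 0.393 in MDTH high performers and 10.6% ± 1.63 in MDTH low performers. Ether-a-go-go genes took 2.59% ± 0.564 in MDTH high performers and 3.69% ± 0.175 in MDTH low performers. Auxiliary subunits took 22.1% ± 1.24 in PFC high performers and 26.1% ± 0.848 in PFC low performers (SD, n = 3 each), a role that includes Kcnab2.

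A pair of members were high in the libraries with high choroid plexus markers. Kcnj13, an inward rectifier of the choroid plexus and retinal pigment epithelium, had 828 normalized counts in HPF high-performer library 2, 751 in PFC high-performer library 1, and 916 and 386 in PFC low-performer libraries 2 and 3. Kcne2, a small single-span subunit of the same epithelium, had 598, 485, 419 and 358 in those same libraries. These are the 4 libraries in which the choroid plexus and ependyma markers were high; elsewhere Kcnj13 lay at 12.1 to 58.5 and Kcne2 at 3.71 to 59.8. Of the exon bases of Kcnj13, 49.1% are shared with Gigyf2 on the other strand.

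**Figure D5:**
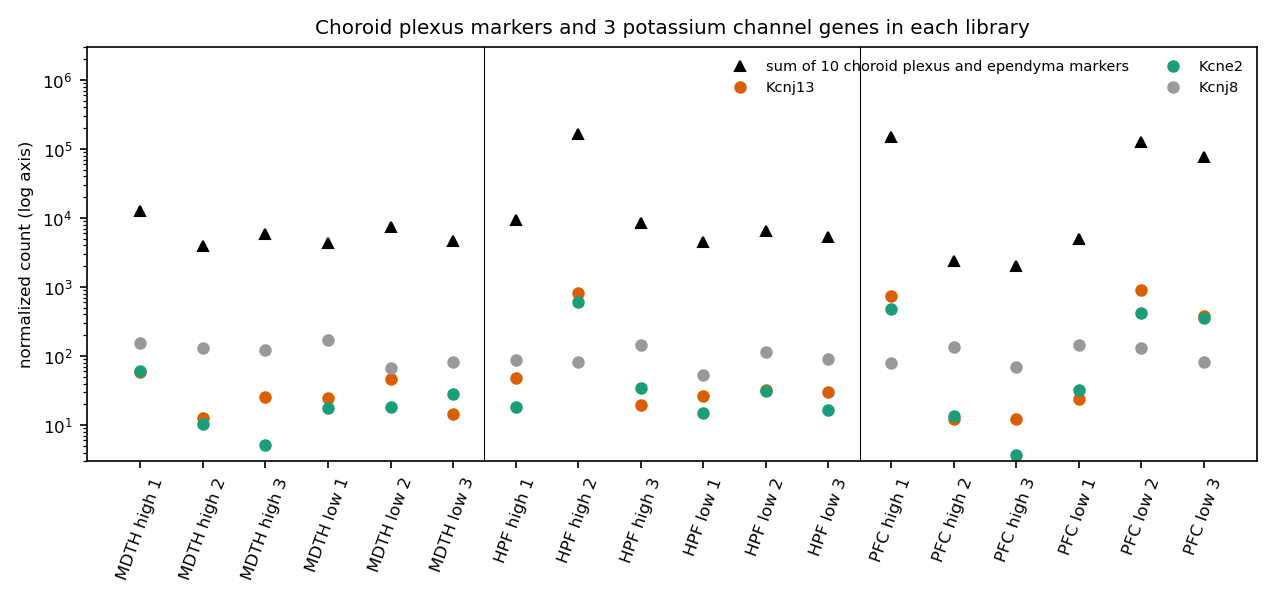
Normalized count (y axis, log scale) of Kcnj13, Kcne2 and Kcnj8 and the sum of 10 choroid plexus and ependyma markers in each of the 18 libraries (x axis). Kcnj13 and Kcne2 are at 358 to 916 in the 4 libraries where the markers sum to 77312 or more, and Kcnj8, a channel of blood vessel cells, does not follow them.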

How the data were processed

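RNA was sequenced in 18 libraries, 3 of high and 3 of low performers in each of MDTH, HPF and PFC, with a stranded mRNA kit per the labels' protocols. The authors deposited 1 table of normalized counts per gene and library, a normalized signal made by dividing counts by normalization factors, as its name says. The authors named STAR, Salmon and DESeq2, without versions, per the submitters' processing notes. Which genome build and gene annotation they used, and whether reads were counted by strand, is not given in the sources used here. Only 22.8% to 69.5% of low values (under 20) came within 0.02 of a whole read, so no count test was run, and depth is an estimate that takes the commonest low value of a library as 1 read.

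Values were analysed as log2(normalized count + 1) with limma 3.58.1 in R 4.3.3 (mean-variance trend, Benjamini-Hochberg adjustment over all genes with a mean of at least 10, threshold 0.05). Fold changes are on that scale, which understates changes of low genes. High and low performers were compared within each tissue on its 6 libraries. Tissue differences and their interaction with performance came from 1 fit of 6 group means on all 18 libraries. Tables and figures were made with Python 3.11.15, pandas 2.3.3, numpy 2.4.6 and matplotlib 3.10.9, and the fit was tested on simulated data. Coordinates, exon lengths and overlaps are from GENCODE M21 (GRCm38), in which 99.2% of gene identifiers were found, and promoter sequences are from RefSeq (GRCm38.p6). No protein sequence was used here, and some members are not reported here by name.

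The members and all gene lists were chosen with earlier results of these data known. Named genes were Kcnc4 in every comparison, and within each tissue up to 10 members higher and 10 lower with the smallest p among those past the threshold whose groups did not overlap (the 3 with the smallest p where fewer than 3 qualified). For each tissue difference they were the 5 largest past the threshold each way, for each interaction the 5 smallest p, for levels the 5 highest per kilobase, and at most 4 partner genes per tissue. Members described outside this rule (among them Kcnc1, Kcnh8, Kcnj6, Kcnj9 and Kcns1 in MDTH, and those given as not passing) were chosen after their values were seen.

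Libraries with the same number in their names deviated together across tissues: all 11 such pairs had correlations of deviations from their group means of 0.346 to 0.611, against -0.37 to 0.312 in 97 pairs with different numbers. That number was used as a block in an alternative fit of the comparisons between tissues. Alternatives were another pseudocount (10), no filter, no mean-variance trend, all libraries in 1 fit, rescaling to the median ratio, a replicate block, the lane tag as a term in HPF, high or low performers alone for tissue differences, and leaving out each library. Leaving out libraries with high choroid plexus markers was added after seeing the data.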

Additional observations from a re-analysis of the deposited data

Results flagged for a closer look

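The results here are members whose difference between high and low performers itself differed between tissues, by the interaction term of the limma fit on all 18 libraries. Between MDTH and PFC the log2 interaction was -1.86 for Kcnc4, -4.26 for Kcng1, -2.78 for Kcnh1, -1.75 for Kcnk2 and 1.21 for Kcnq3. Between MDTH and HPF it was -2.31 for Kcnc4, 1.49 for Kcns2, -3.86 for Kcng1, -1.51 for Kcnk9 and -1.93 for Kcnh1. Between HPF and PFC it was -1.01 for Kcns2, 0.74 for Kcnn3, 0.62 for Kcnj10, 1.17 for Kcnh7 and 0.76 for Kcnd1. The 3 contrasts share libraries, so a gene given more than once is not counted as independent evidence. In the contrasts with HPF, tissue also cannot be told apart from lane tag, name style and depth.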

How the results depend on the processing

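For the comparisons of high with low performers, the number of members called in MDTH (25) was 14 without the mean-variance trend, 36 with all 18 libraries in 1 fit and 10 to 31 without each library. In PFC (6) it was 3 with all 18 libraries in 1 fit, 0 without the trend, 0 without the 3 libraries high in choroid plexus markers and 0 to 5 without each library. In HPF (0) it was 4 with all 18 libraries in 1 fit. Over all genes, that fit called 5422 in MDTH, 2529 in PFC and 265 in HPF, against 4470, 1053 and 3 in the main fits. In PFC the members thus fell while the count over all genes rose. Without the trend, 3086 genes passed in MDTH and 52 in PFC. For the performance difference between MDTH and PFC (10) it was 2 without the 4 choroid-rich libraries and 4 to 18 without each library. For that between HPF and PFC (5) it was 3 with no filter, 9 with the replicate block on name numbers, 0 without the choroid-rich libraries and 2 to 6 without each library. Over all genes, 278 to 1004 passed between MDTH and PFC without each library. Between HPF and PFC, 1206 did with no filter and 896 to 1818 without each library. The replicate numbers in the titles did not pair high with low performers (0 of 9 pairs correlated above 0.1, range -0.127 to 0.0923). With them as a replicate block the count was 14 members in MDTH and 0 in PFC, beside 2425 and 0 of all genes. With the block on name numbers, 29 members and 4993 of 18254 genes passed for the performance difference between MDTH and HPF (20 and 3476 without it), and 13 and 1034 for that between MDTH and PFC (10 and 623). That block changed no call of a named member. One value reversed: the log2 difference of Kcnc4 between MDTH and HPF was -1.13 over all libraries and 0.026 over low performers alone. The cause of these changes was not tested. Where libraries were left out, having fewer of them was not separated from which ones were left out. Of the values of named members under all alternatives, 1234 kept direction and side of the threshold, 145 kept direction and lost the call and 3 gained it. Normalized counts hide the true depth, and 3 libraries per group limit precision.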
